A study of Mus musculus with 13 samples.

Results

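Genes of the translation initiation factors were taken as the gene symbols of the deposited count tables that begin with Eif and a digit from 1 to 6, without Eif4e1b and Eif4enif1. This left 54 of 18939 genes. They were placed into the subunits of eIF2, eIF2B and eIF3, into the eIF4 genes, and into smaller classes by role around these complexes.

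Initiation is the step that sets a ribosome on the start codon of an mRNA. eIF2 carries the initiator tRNA to the small ribosomal subunit, and eIF2B reloads eIF2 with GTP after each round. eIF3 is a large scaffold on the small subunit, and the eIF4 factors bind the mRNA cap and unwind the leader. eIF1, eIF1A and eIF5 act while the start codon is searched for, and eIF5B joins the large subunit. Transcription is shut down by the time a grown oocyte matures, and the oocyte then runs on stored transcripts. Some of these gain poly(A) and are translated, and others lose their tails and are degraded.

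Each library came from a single oocyte of C57BL/6 females aged 3 to 4 weeks and primed with PMSG, a gonadotropin that makes follicles grow. Every oocyte of every group carried injected mRNA for fibrillarin fused to GFP (FBL–GFP). In its imaging the study co-injected mRNA for H2B-mCherry, and its text does not say whether the sequenced oocytes carried that mRNA. Germinal vesicle (GV) oocytes were classified by the FBL–GFP pattern after 6 h in Cilostamide, which holds them in meiotic arrest, as surrounded nucleolus (SN, n = 3) or non-surrounded nucleolus (NSN, n = 3). By the paper's labelling of new RNA, NSN GV oocytes still transcribed and SN GV oocytes were almost silent. Oocytes of each type were then released and matured in culture to metaphase II, giving SN-MII (n = 4) and NSN-MII (n = 3) oocytes. An NSN-MII library comes from an oocyte that completed the first division, so it stands for the NSN oocytes that could mature and not for all of them. The labels do not say which oocytes shared a female, so p-values measure the spread between these oocytes.

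Total estimated counts were 7140416 to 8846287 per library. All 12 oocyte markers fixed for the check had counts in all 13 libraries. Their sum was 21725 to 24392 CPM (a count scaled by library size) in SN GV and 25390 to 29317 CPM in NSN GV oocytes, and 21344 to 23461 CPM in SN-MII and 17473 to 18354 CPM in NSN-MII oocytes, so the types did not overlap at either stage. Markers of cumulus and granulosa cells summed to between 62.2 and 93.6 CPM in the 6 GV libraries and between 99.0 and 189 CPM in the 7 MII libraries. Most of that was Cyp19a1, at 37.8 to 158 CPM. Nr5a2 (6.93 to 18.5 CPM) and Kitl (1.62 to 13.4 CPM) also had counts in all 13 libraries. No other marker of the list exceeded 5.74 CPM, the highest value of Cyp11a1. Foxl2 was at 0 in every library and Amh did not exceed 0.398 CPM. The highest sum and the fewest detected genes, 11579, were both in NSN-MII replicate 3. The part of these differences in the results was not tested. The scaling of CPM used TMM, a factor that allows for library composition, and FPKM are the authors' values per gene length and library size.

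Counts were seen for 52 of the 54 genes. Eif2c5, whose symbol is the old name of an Argonaute gene, and the Y-linked Eif2s3y had none in any library. Eif2ak2 and Eif4ebp3 had too few counts to be tested, with no library above 1.43 CPM. The other 50 genes could be compared between stages.

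Most of the initiation factor transcripts changed between GV and MII, and the subunit transcripts of a complex did not all change together. Of the 50 genes, 21 were higher and 24 lower at MII (adjusted p under 0.05, edgeR's quasi-likelihood test). Change was general in these oocytes: of all genes tested, 68.6% were called, 31.7% as higher and 36.9% as lower. The median log2 fold change was -0.60 over the 50 genes and -0.10 over all genes. In 35 of the 50 genes every MII oocyte lay outside the GV range in CPM, against 47.4% of all genes, and 12 of the 50 were lower by at least 8-fold, against 11.7%. The 5 genes not called were Eif1a, Eif3j1, Eif4e, Eif4ebp1 and Eif5a2.

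These values are shares of each library. They are levels of transcripts, and the proteins of these genes and the assembled complexes were not measured. The cDNA was primed on poly(A) tails, so a change in mRNA number and a change in tail length cannot be told apart, and a change in the total mRNA of an oocyte is not seen.

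**Figure D1:**
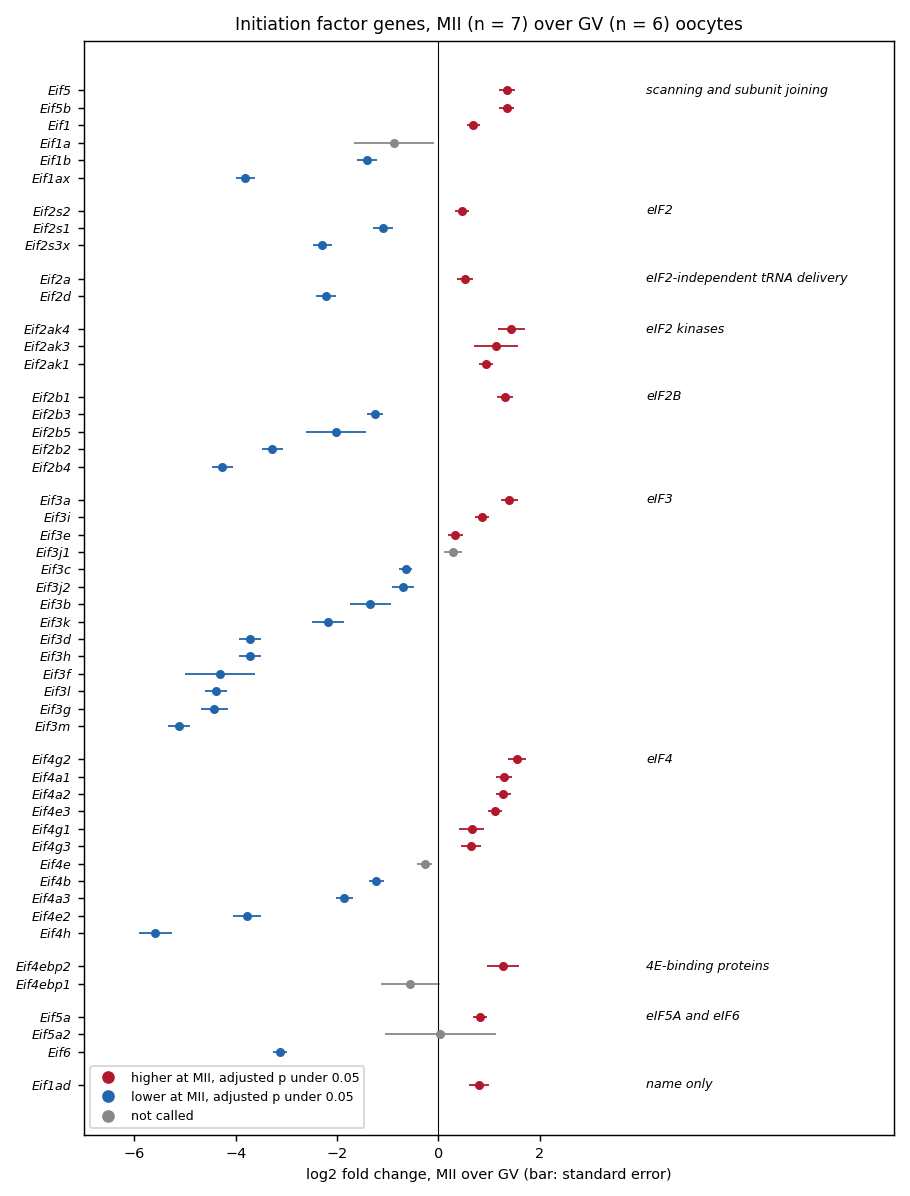
Log2 fold change of the 50 tested initiation factor genes, MII over GV, by class (points, edgeR estimates; bars, standard error). Red points are called higher (21 genes), blue points lower (24 genes) and grey points not called (5 genes); falls reach -5.59 and rises reach 1.55.

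The 3 tested subunit genes of eIF2 did not move together. Eif2s3x, the gamma subunit that binds GTP and tRNA (chrX:94188707-94212862, minus strand, mm10), lay between 58.3 and 99.7 CPM at GV (median 75.7) and between 10.1 and 23.1 CPM at MII (median 16.9). The stages did not overlap, and it fell by 2.29 on the log2 scale (SE 0.19, adjusted p = 1.98e-08). Reads of Eif2s3x were shared with other genes in all 13 libraries. Eif2s1, the alpha subunit whose phosphorylation by stress kinases shuts initiation down, fell by 1.09 (SE 0.19, adjusted p = 9.73e-05). Its MII libraries reached from 49.6 to 156 CPM and overlapped GV through 1 oocyte, NSN-MII replicate 3. Eif2s2, the beta subunit, was 385 to 667 CPM at GV (median 599) and 691 to 973 CPM at MII (median 748). It rose by 0.47 (SE 0.14, adjusted p = 0.00882), a call that was lost when libraries were scaled by their totals alone (0.17, adjusted p = 0.154). The call was also lost when a change of at least 1.5-fold was required, the study's fold threshold. Per gene length Eif2s2 was the most abundant subunit transcript at both stages, at 225 ± 26.9 FPKM (SD, n = 6) at GV and 285 ± 25.4 FPKM (SD, n = 7) at MII. Eif2s1 stood at 48.7 ± 4.83 and 21.1 ± 9.18 FPKM, and Eif2s3x at 21.4 ± 4.27 and 4.57 ± 1.73 FPKM.

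Transcripts of the kinases that phosphorylate eIF2 alpha were higher at MII for each of the 3 that could be tested. Eif2ak1, the heme-regulated kinase, was 255 to 396 CPM at GV (median 327) and 527 to 754 CPM at MII (median 619). Eif2ak4, the kinase that senses uncharged tRNA, was 25 to 124 CPM at GV (median 94.9) and 179 to 283 CPM at MII (median 232). Neither gene had an MII oocyte within the GV range, and their log2 fold changes were 0.94 (SE 0.14, adjusted p = 2.37e-05) and 1.44 (SE 0.27, adjusted p = 0.00014). The lowest GV value of Eif2ak4 was that of NSN GV replicate 2, and the other 5 GV oocytes had 79.3 CPM or more. Eif2ak3, the kinase of the endoplasmic reticulum, had 1.26 to 6.10 CPM at GV and 2.78 to 12.0 CPM at MII. Its log2 fold change was 1.13 (SE 0.43, adjusted p = 0.0286). That call was lost without SN GV replicate 1 or 2, NSN GV replicate 3, SN-MII replicate 3, or NSN-MII replicate 1 or 2, with log2 fold changes of 0.96 to 1.02 and adjusted p of 0.0601 to 0.073. It was also lost with library totals alone (0.82, adjusted p = 0.135) and with the replicate number as a block (1.13, adjusted p = 0.0603).

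Delivery of tRNA without eIF2 was represented by 2 genes that went apart. Eif2d was 77.7 to 97.2 CPM at GV (median 85.9) and 12.7 to 24.9 CPM at MII (median 18). It fell by 2.22 (SE 0.19, adjusted p = 3.93e-08). Eif2a, which is a separate gene and not the alpha subunit of eIF2, had a log2 fold change of 0.53 (SE 0.16, adjusted p = 0.00658) with overlapping stages. Its call was lost with library totals alone (0.22, adjusted p = 0.153) and when a change of at least 1.5-fold was required.

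In eIF2B, 4 of the 5 subunit genes fell and 1 rose. Eif2b1, the alpha subunit through which the complex senses phosphorylated eIF2 (chr5:124570213-124579131, minus strand), was 413 to 645 CPM at GV (median 515) and 1074 to 1840.1 CPM at MII (median 1206), a rise of 1.30 on the log2 scale (SE 0.16, adjusted p = 1.67e-06). Eif2b4, the delta subunit (chr5:31187558-31193430, minus strand), was 164 to 254 CPM at GV (median 223) and 7.09 to 17.6 CPM at MII (median 11.2), a fall of 19.3-fold (log2 -4.27, SE 0.21, adjusted p = 6.41e-11). Eif2b2, the beta subunit, was 46.4 to 65.1 CPM at GV (median 58.7) and 3.57 to 10.4 CPM at MII (median 5.97), a fall of 9.70-fold (log2 -3.28, SE 0.20, adjusted p = 5.72e-10). So the stages were apart in opposite directions between subunit transcripts of the same complex. Of the catalytic pair, Eif2b3 (gamma) had a log2 fold change of -1.25, and Eif2b5 (epsilon), at 5.67 CPM or less in every oocyte, had -2.02. Reads of Eif2b4 were shared with other genes in 7 of the 13 libraries. On the FPKM scale Eif2b1 made up 302 ± 31.4 of a summed 542 ± 50.2 FPKM at GV (SD, n = 6), and 640.2 ± 91.7 of 677 ± 87.4 FPKM at MII (SD, n = 7).

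The 14 eIF3 genes held the largest group of falls: 10 were lower at MII, 3 higher and 1 not called, with a median log2 fold change of -1.76. In 6 genes the fall exceeded 8-fold. Within the octamer core, Eif3m (chr2:104999656-105017080, minus strand) was 196 to 279.9 CPM at GV (median 262) and 3.71 to 9.87 CPM at MII (median 7.57). Its fall of 34.9-fold (log2 -5.13, SE 0.22, adjusted p = 1.89e-11) was the largest in the complex. Eif3l, also of the core, had a log2 fold change of -4.40 and Eif3h one of -3.72. Eif3f had -4.31, but on few reads, since no MII library held more than 4 counts and no GV library more than 65. The estimate for Eif3f was -5.04 without NSN-MII replicate 2 and -1.05 on log2(FPKM + 1) without the filter on low values, so the size of its fall is uncertain.

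Among the peripheral subunits, Eif3g, an RNA-binding subunit (chr9:20894349-20898623, minus strand), was 134 to 217 CPM at GV (median 178) and 3.21 to 13.7 CPM at MII (median 8.22). It fell 21.5-fold (log2 -4.43, SE 0.27, adjusted p = 5.07e-10). Eif3d, a subunit that can bind the cap of some mRNAs, had a log2 fold change of -3.72. In both genes every MII oocyte was below every GV oocyte. Eif3b, a peripheral subunit, fell less (-1.35), as did Eif3k (-2.18) and Eif3c (-0.65) of the core. The direction for Eif3c held in the count fits alone, as its FPKM were 55.1 ± 11.9 at GV and 58.6 ± 11.2 at MII (log2 0.11 in limma, adjusted p = 0.518).

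Rises within eIF3 were smaller. Eif3a, the largest subunit and the backbone of the core (chr19:60761117-60790658, minus strand), was 34.6 to 60.6 CPM at GV (median 45.2) and 92.2 to 163 CPM at MII (median 115). It rose by 1.40 (SE 0.18, adjusted p = 2.35e-06). Eif3i, a WD-repeat subunit, was 72.3 to 101 CPM at GV (median 92.7) and 144 to 212 CPM at MII (median 156), a rise of 0.87 (SE 0.14, adjusted p = 4.31e-05). No MII oocyte was within the GV range of either gene. Eif3e had a log2 fold change of 0.34 at an adjusted p of 0.0436, and of the 23 other settings tried for it only 5 gave a call. Left-out libraries that ended the Eif3e call were SN GV replicates 2 and 3, NSN GV replicates 1 and 3, all 4 SN-MII replicates and NSN-MII replicate 3, with log2 fold changes of 0.23 to 0.35.

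Eif3j1 and Eif3j2 encode the same loosely bound subunit, and reads of both were shared with other genes in all 13 libraries. Eif3j1 was 24.2 to 27.9 CPM at GV (median 25.7) and 23.6 to 39.6 CPM at MII (median 33.2). Its log2 fold change of 0.29 (SE 0.18, adjusted p = 0.166) turned to -0.01 with library totals alone and was called on FPKM (0.55, adjusted p = 0.00589). Eif3j2 was 22.1 to 31.2 CPM at GV (median 26.5) and 8.80 to 22.4 CPM at MII (median 15.4), with a log2 fold change of -0.70 (SE 0.21, adjusted p = 0.00777). Summed over the 14 genes, eIF3 stood at 1236 ± 111 FPKM (SD, n = 6) at GV and 447 ± 46.4 FPKM (SD, n = 7) at MII.

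**Figure D2:**
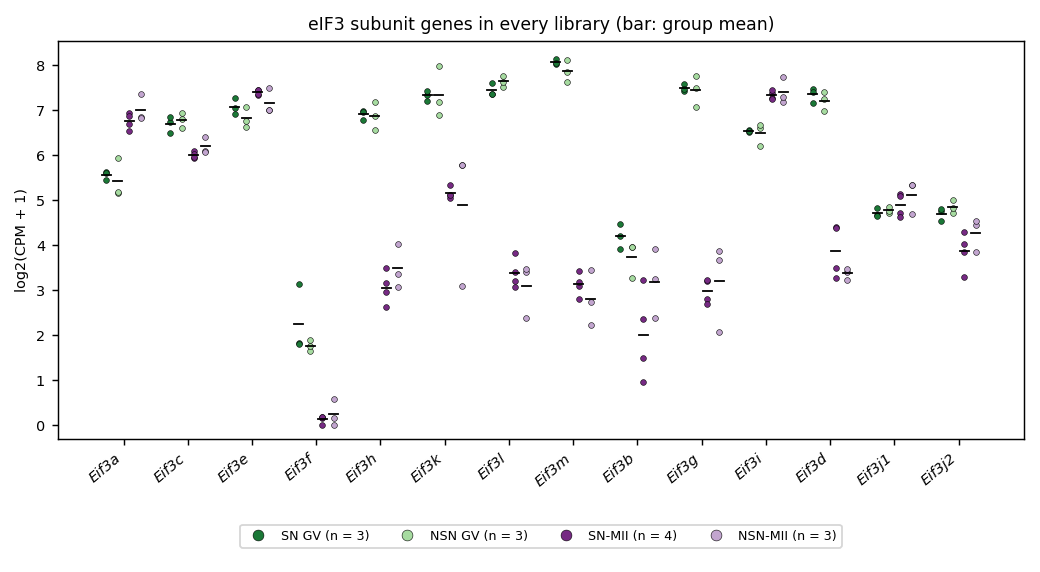
Level of each eIF3 subunit gene in every library, as log2(CPM + 1); each point is 1 oocyte and each bar a group mean. Eif3m, Eif3g, Eif3l, Eif3h and Eif3d sit far lower in the 7 MII oocytes than in the 6 GV oocytes, while Eif3a and Eif3i sit higher. SN and NSN points of a stage overlap, and those of Eif3b and Eif3k spread widely at MII.

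The eIF4 genes split by gene family member: 6 rose, 4 fell and 1 was not called, with a median log2 fold change of 0.65. Eif4a1 and Eif4a2 encode the helicase of the cap complex. Eif4a1 was 179.5 to 264 CPM at GV (median 216) and 395 to 675 CPM at MII (median 540.1), and Eif4a2 was 120.5 to 184 CPM (median 160.4) and 310.0 to 461 CPM (median 399). They rose by 1.29 (SE 0.16, adjusted p = 1.68e-06) and 1.28 (SE 0.14, adjusted p = 6.79e-07). Their relative Eif4a3, a helicase of the exon junction complex, went the other way, from 275 to 459 CPM at GV (median 423) to 89.6 to 139.9 CPM at MII (median 117), and fell by 1.85 (SE 0.16, adjusted p = 3.27e-08).

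Both cofactors of the helicase fell. Eif4h (chr5:134619721-134639490, minus strand) was 113 to 281 CPM at GV (median 156) and 0.844 to 6.03 CPM at MII (median 4.11). The fall of 48.0-fold (log2 -5.59, SE 0.33, adjusted p = 3.76e-10) was the largest among the 50 genes. Eif4b had a log2 fold change of -1.23 (SE 0.14, adjusted p = 1.16e-06).

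The 3 cap-binding genes gave 3 different patterns. Eif4e, the cap-binding subunit of the complex, was 289.7 to 402 CPM at GV (median 369) and 236 to 394 CPM at MII (median 277). Its log2 fold change of -0.27 (SE 0.15, adjusted p = 0.121) was not called, but it was called on FPKM (-0.69), with library totals alone (-0.57) and without NSN-MII replicate 3 (-0.41, adjusted p = 0.00621). Eif4e2, a cap-binding repressor, was 33.1 to 45.3 CPM at GV (median 38.6) and 0.954 to 5.19 CPM at MII (median 2.53), and it fell by 3.78 (SE 0.28, adjusted p = 4.63e-09). Eif4e3 (chr6:99625135-99666771, minus strand) was 285 to 426 CPM at GV (median 351) and 683 to 990.0 CPM at MII (median 733), and it rose by 1.12 (SE 0.14, adjusted p = 1.72e-06). On FPKM, Eif4e was higher than Eif4e3 at GV, at 230.1 ± 19.3 against 139.7 ± 10.9 (SD, n = 6). At MII the order was turned, at 143 ± 10.5 against 272 ± 22.8 (SD, n = 7). Reads of Eif4e3 were shared with other genes in all 13 libraries.

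Of the eIF4G scaffolds, Eif4g2, which lacks the eIF4E-binding part, was 214 to 567 CPM at GV (median 515) and 1286 to 1483 CPM at MII (median 1359.7). It rose by 1.55 on the log2 scale (SE 0.18, adjusted p = 1.24e-06), the largest rise of the 50 genes with all libraries. Without NSN GV replicate 2, the oocyte at 214 CPM, its rise was 1.38 and that of Eif2b1 was larger, at 1.39. Eif4g2 reads were shared with other genes in every library. Eif4g1 was 23.9 to 46.2 CPM at GV (median 26.0) and 25.8 to 74.7 CPM at MII (median 43.9), and Eif4g3 was 26.3 to 60.1 CPM (median 46.8) and 56.7 to 88.4 CPM (median 67.8). Each had a log2 fold change of 0.65 with overlapping stages, at adjusted p of 0.0226 and 0.00841. Both calls were lost with library totals alone (0.37 and 0.36). The Eif4g1 call was also lost on FPKM (0.32) and without NSN GV replicate 3 (0.59, adjusted p = 0.0527) or NSN-MII replicate 1 (0.46, adjusted p = 0.119).

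**Figure D3:**
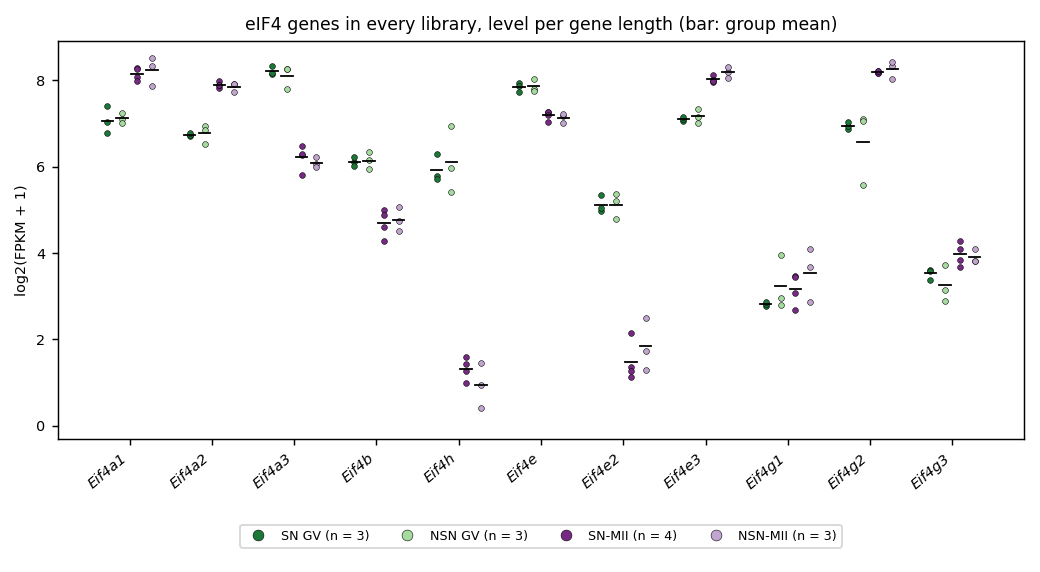
Level of each eIF4 gene in every library, as log2(FPKM + 1), a scale per gene length; each point is 1 oocyte and each bar a group mean. Eif4h and Eif4e2 drop to the bottom of the plot at MII, Eif4a1, Eif4a2, Eif4e3 and Eif4g2 rise, and Eif4e and Eif4e3 change places between the stages.

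Summed over 11 genes, eIF4 stood at 1203 ± 27.3 FPKM (SD, n = 6) at GV and 1365 ± 42.6 FPKM (SD, n = 7) at MII, and the ranges of 1161 to 1241 and 1318 to 1442 FPKM did not overlap. What differed more was how evenly the genes of a set were represented. The SD of log2(FPKM + 1) over the 11 genes within an oocyte was 1.52 to 1.82 at GV and 2.46 to 2.93 at MII. For the 3 expressed eIF2 genes it was 1.51 to 2.01 and 2.66 to 3.2, and for the 5 eIF2B genes 2.28 to 2.71 and 3.13 to 3.55. In these 3 sets every MII oocyte was more uneven than every GV oocyte. The eIF4 sum and spread include Eif4a3, of the exon junction complex, and Eif4e2, a repressor. Eif4a3 alone averaged 287 FPKM at GV and 71.3 FPKM at MII. Over the 14 eIF3 genes the ranges met, at 2.06 to 2.45 and 2.04 to 2.17. The spread describes the genes of a set, reflects the same changes as given above and was not tested. No spread over other sets of genes was taken for comparison.

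Transcripts of the 4E-binding proteins, which hold eIF4E away from the scaffold, were scarce, at a sum of 3.37 ± 0.776 FPKM at GV and 3.23 ± 0.926 FPKM at MII. Eif4ebp2 was 3.19 to 5.49 CPM at GV (median 4.72) and 2.86 to 17.2 CPM at MII (median 11.7), with a log2 fold change of 1.27 (SE 0.32, adjusted p = 0.00207). On log2(FPKM + 0.1) that change was 0.79 and not called (adjusted p = 0.0744), and on log2(FPKM + 1) over genes with a mean FPKM above 0 it was 0.53 and not called (adjusted p = 0.0675). Eif4ebp1 was 0.505 to 3 CPM at GV (median 1.84) and 0.506 to 2.23 CPM at MII (median 1.06), and its log2 fold change of -0.55 (SE 0.57, adjusted p = 0.406) did not pass.

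Factors of scanning and subunit joining included the transcripts with the highest mean FPKM of the set, Eif1b at GV and Eif5 at MII. Eif5, which makes eIF2 hydrolyse its GTP at the start codon (chr12:111538016-111546752, plus strand), was 269.8 to 565 CPM at GV (median 480.4) and 1030.4 to 1430.3 CPM at MII (median 1113). It rose by 1.35 (SE 0.17, adjusted p = 1.86e-06), and at MII it stood first among the 54 genes per length, at 1317 ± 123 FPKM (SD, n = 7). Eif5b was 174 to 248 CPM at GV (median 203) and 452 to 652 CPM at MII (median 477), also a rise of 1.35 (SE 0.15, adjusted p = 6.21e-07). In both genes the MII oocytes were all above the GV oocytes.

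The paralogues of this class parted. Eif1 was 327 to 444 CPM at GV (median 422) and 597 to 763 CPM at MII (median 632), and rose by 0.69 (SE 0.13, adjusted p = 0.00014). Eif1b was 339 to 523 CPM at GV (median 436) and 90.5 to 257 CPM at MII (median 198), and fell by 1.41 (SE 0.20, adjusted p = 1.01e-05). At GV Eif1b (496 ± 49.8 FPKM) and Eif1 (472 ± 28.8 FPKM) were within each other's spread, and at MII they stood at 178 ± 54.3 and 619.9 ± 23.5 FPKM. Of the genes for eIF1A, Eif1ax (chrX:159372178-159389928, plus strand) was 251 to 441 CPM at GV (median 354) and 16.2 to 43.2 CPM at MII (median 23.0), a fall of 14-fold (log2 -3.81, SE 0.19, adjusted p = 9.43e-11). Eif1a had 9.89 CPM or less in every oocyte, with a log2 fold change of -0.88 (SE 0.79, adjusted p = 0.336) that came to 0.01 without SN GV replicate 3.

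Eif6, which keeps the large ribosomal subunit from joining too early (chr2:155819832-155826925, minus strand), was 334 to 478 CPM at GV (median 383) and 36.6 to 49.9 CPM at MII (median 47.0). It fell 8.70-fold (log2 -3.12, SE 0.14, adjusted p = 3.34e-11). Eif5a, a factor of elongation and termination despite its name, was 283 to 377 CPM at GV (median 327) and 509 to 756 CPM at MII (median 562), a rise of 0.82 (SE 0.14, adjusted p = 7.19e-05). Its paralogue Eif5a2 had 2.85 CPM or less in every oocyte, and its log2 fold change of 0.03 had an SE of 1.10, so a change of several-fold could not have been seen. Eif1ad, which shares only a domain with eIF1A, was 19.1 to 31.2 CPM at GV (median 26.2) and 34.3 to 57.6 CPM at MII (median 43.8), with a log2 fold change of 0.80 (SE 0.20, adjusted p = 0.00182).

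The annotated 3′ untranslated region (3′ UTR) was then set beside these changes, because it holds the signals for poly(A) gain and loss in oocytes. One coding transcript per gene was read from GENCODE M21 (GRCm38, the genome of mm10), and all 54 symbols were found there. The 24 genes that fell had a median 3′ UTR of 339 bases and the 21 that rose one of 957 bases. The same order held over all genes, at 573 bases for those called lower and 1446 for those called higher. Under 200 bases were 9 of the 24 falling genes (37.5%) against 20.4% of all genes called lower, and 3 of the 21 rising genes (14.3%) against 5.42% of all genes called higher. Within eIF3, 6 of 10 falling and 2 of 3 rising genes were that short. The short ones that fell included Eif3k (35 bases), Eif2b4 (43 bases), Eif3m (65 bases) and Eif3g (78 bases). Length did not sort the genes fully, since Eif3i (93 bases) rose and Eif4h and Eif1ax fell with long 3′ UTRs. Across genes, which share the same libraries and are not independent, the rank correlation of 3′ UTR length and log2 fold change was 0.36 over the 50 genes and 0.34 over 11205 genes.

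**Figure D4:**
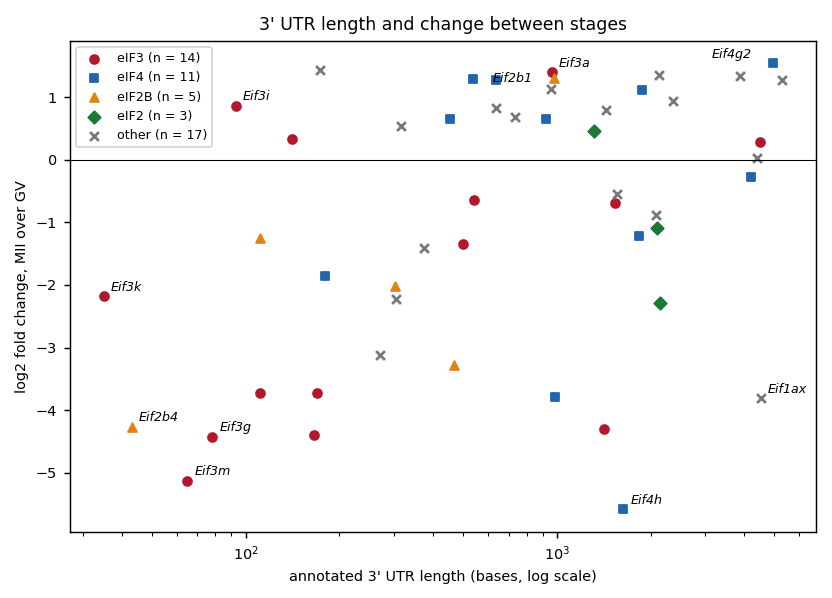
Annotated 3′ UTR length in bases (log axis) and log2 fold change, MII over GV, of the 50 tested genes, marked by complex. Eif3k, Eif2b4, Eif3m and Eif3g combine a 3′ UTR under 200 bases with a fall, while Eif3i is short and rises, and Eif4h and Eif1ax are long and fall.

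The letters of a cytoplasmic polyadenylation element, TTTTAT or TTTTAAT on the transcript strand, were searched for in the last 150 bases of each 3′ UTR, or in all of a shorter one. They were found in 3 of the 21 genes that rose (14.3%) and in 6 of the 24 that fell (25%). Over all genes tested the shares were 37.0% of those called higher, 13.7% of those called lower and 24.9% in all. A match is only a match of letters. The windows below show it in genes that rose and in genes that fell, with the matched letters in capitals and the rest in lower case, written 5′ to 3′ on the transcript strand from GRCm38. Eif4e3 and Eif4g1 were higher at MII, and Eif3m and Eif1ax lower.
Eif4e3 (chr6:99625215-99625244, minus strand): attttgagaaaaTTTTATttttgaacttta
Eif4g1 (chr16:20692735-20692764, plus strand): tccttTTTTATtttctgaaatcactcttgg
Eif3m (chr2:104999691-104999720, minus strand): atTTTTATgaaaatgattttgttcgttgag
Eif1ax (chrX:159389887-159389916, plus strand): attcagtggatgTTTTATgctgcacaaata
The same 6 letters thus stood 92 bases from the end in Eif4e3 and 139 in Eif4g1, and 57 in Eif3m and 24 in Eif1ax.

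Maturation was next taken within each type of oocyte, which the study separated to relate the FBL–GFP pattern to meiotic potential. In SN oocytes 39 of the 50 genes were called between GV and MII, 15 higher and 24 lower, where 56.3% of all genes were called, 25.1% higher and 31.2% lower. In NSN oocytes 39 were called, 18 higher and 21 lower, where 56.3% of all genes were called, 25.5% higher and 30.8% lower. Both types called 14 genes higher and 21 lower, and no gene was called in opposite directions. Eif2ak3, Eif2s2, Eif4ebp2 and Eif4g3 passed in NSN oocytes alone (higher), Eif2a in SN oocytes alone (higher), and Eif2b5, Eif3b and Eif3j2 in SN oocytes alone (lower). None of these 8 differed between types in the test of the difference itself, where the smallest adjusted p was that of Eif3b at 0.932.

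The largest falls were seen in both types. Eif3m had a log2 fold change of -5.09 in SN and -5.16 in NSN oocytes. Eif2b4 had -4.01 and -4.52, and Eif4h -5.14 and -6.03. Among the rises, Eif5 had 1.16 and 1.55 and Eif4g2 1.38 and 1.71. The summed level of eIF3 was 1240 ± 56.3 FPKM in SN GV and 1232 ± 167 FPKM in NSN GV oocytes (SD, n = 3 each). At MII it was 431 ± 25.2 FPKM in SN-MII (SD, n = 4) and 469 ± 65.5 FPKM in NSN-MII oocytes (SD, n = 3).

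Levels of most initiation factor transcripts in NSN and SN GV oocytes lay within 2-fold of each other. In the comparison of 3 NSN with 3 SN GV oocytes, 0 of 49 tested genes were called by edgeR, by DESeq2 or by limma on FPKM, and 0 of 49 had an unadjusted p under 0.05. Over all genes edgeR called 0%, and 1.75% had an unadjusted p under 0.05. The median size of the log2 difference was 0.09, and for 40 of the 49 genes the interval of 2 SE on either side of the estimate stayed within 2-fold. For the other 9 the interval reached beyond 2-fold.

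The smallest unadjusted p at GV belonged to Eif4g1, with 24.9, 23.9 and 26.0 CPM in SN and 46.2, 27.2 and 26.0 CPM in NSN GV oocytes. Its log2 difference of 0.45 (SE 0.31, adjusted p = 1) was 0.06 without NSN GV replicate 1, and the other NSN oocytes were just above the SN range. It was the only gene of the 49 whose types did not overlap at GV, against 6.04% of all genes. Eif3l had 163, 193 and 164 CPM in SN and 183, 215 and 197 CPM in NSN GV oocytes, and Eif3e had 154, 130.3 and 120.5 CPM in SN and 97.4, 133 and 107 CPM in NSN GV oocytes. In both the types overlapped, with log2 differences of 0.21 (SE 0.16) and -0.25 (SE 0.18).

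At MII, 0 of 45 tested genes were called between NSN-MII and SN-MII oocytes by edgeR, which called 0.259% of all genes. An unadjusted p under 0.05 was found for 3 of the 45, against 9.38% of all genes, and 2 of the 45 did not overlap between types, Eif2s3x and Eif2b2, against 10.2%. For 26 of the 45 genes the interval of 2 SE stayed within 2-fold, and for 19 it reached further. The 3 were Eif2s1 and Eif2s3x, both subunits of eIF2, and Eif1ax.

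Eif2s1 had 65.0, 68.8, 56.7 and 49.6 CPM in SN-MII and 80.7, 61.4 and 156 CPM in NSN-MII oocytes. Its log2 difference of 0.71 (SE 0.28, adjusted p = 0.411) fell to 0.25 without NSN-MII replicate 3, the library at 156 CPM. Eif2s3x had 11.0, 16.9, 13.1 and 10.1 CPM in SN-MII and 18.1, 23.1 and 20.1 CPM in NSN-MII oocytes. All its NSN-MII values were above all its SN-MII values, with a log2 difference of 0.67 (SE 0.28, adjusted p = 0.468). Eif1ax had 16.2, 23.0, 23.5 and 18.5 CPM in SN-MII and 43.2, 30.8 and 22.4 CPM in NSN-MII oocytes. Its types overlapped through NSN-MII replicate 3, and its log2 difference was 0.67 (SE 0.28, adjusted p = 0.472) on counts but 0.04 on FPKM. Eif2s3x and Eif1ax are both on the X chromosome, a feature named here after their values were seen.

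Some calls at MII depended on the library or the tool. Without NSN-MII replicate 3, edgeR called Eif1b (log2 -1.10, adjusted p = 0.0161) and Eif1a (4.1, adjusted p = 0.0141). DESeq2 called Eif1a on all libraries (3.58, adjusted p = 0.0178), a gene too low for the edgeR filter at MII. Eif1a had 0.265, 1.28, 0.394 and 0.136 CPM in SN-MII and 8.45, 9.89 and 0.337 CPM in NSN-MII oocytes, and at GV 1.15, 0.118 and 5.26 CPM in SN and 8.93, 5.99 and 0.632 CPM in NSN oocytes. The values varied by more than 10-fold within SN GV, NSN GV and NSN-MII oocytes alike. Eif1b had 160.4, 207, 198 and 257 CPM in SN-MII and 99.6, 90.5 and 218 CPM in NSN-MII oocytes, so that NSN-MII replicate 3 alone stood within the SN-MII range.

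**Figure D5:**
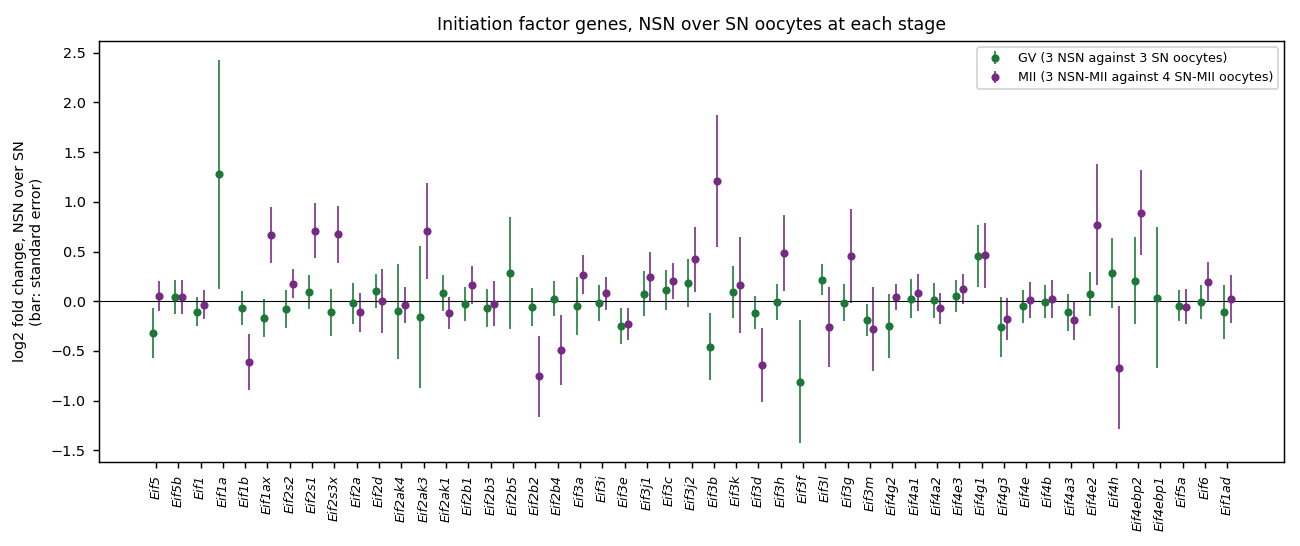
Log2 difference of each tested gene between NSN and SN oocytes at GV (green, 49 genes) and at MII (purple, 45 genes); bars are standard errors. None of the points is called at an adjusted p under 0.05; the bars at MII are longer for low genes such as Eif3b and Eif4h.

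Whether the difference between types changed with stage was tested by the interaction. None of 50 genes was called by edgeR, DESeq2 or limma, where edgeR called 0.0176% of all genes, and 2 of the 50 had an unadjusted p under 0.05 against 5.33% of all genes. These were Eif1ax (log2 interaction 0.84, SE 0.35, adjusted p = 0.867) and Eif2s3x (0.81, SE 0.37, adjusted p = 0.918). Next came Eif3b (1.71, SE 0.81, adjusted p = 0.932), which had 14.1, 21.3 and 17.5 CPM in SN GV, 14.5, 8.61 and 14.7 CPM in NSN GV, 4.11, 8.34, 1.84 and 0.954 CPM in SN-MII and 8.56, 4.2 and 14.2 CPM in NSN-MII oocytes. For 26 of the 50 genes the interval of 2 SE reached beyond 2-fold.

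Genes that work with the initiation factors were taken from a list of 40, of which 39 were in the tables and tested. Between GV and MII 9 of them were higher and 21 lower. Over all genes tested, 31.7% were higher and 36.9% lower. Elongation factors and the enzymes that modify them were lower in 9 of 9 genes. Eef1d, a subunit of the exchange factor of elongation, averaged 252 CPM in GV oocytes (SD 41.6) and 7.56 CPM in MII oocytes (SD 2.54; log2 -5.05, SE 0.25, adjusted p = 6.53e-11). Dohh, an enzyme that makes the hypusine residue of eIF5A, had a log2 fold change of -4.50, while Eif5a itself rose. Eef1a1, which carries tRNA to the elongating ribosome, had -4.28 and was named after its value was seen. All 3 termination factor genes were lower over both types. The stages of Etf1 and Gspt1 overlapped, however. Within NSN oocytes edgeR did not call Etf1 (-0.37, adjusted p = 0.205) or Gspt1 (-0.71, adjusted p = 0.119).

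Of 6 genes for poly(A)-binding proteins and their partners, 1 rose and 2 fell. Paip1, which promotes the link between tail and cap, averaged 226 CPM at GV (SD 31.0) and 581 CPM at MII (SD 82.9), and rose by 1.38 (SE 0.13, adjusted p = 9.24e-08). Paip2, which removes the poly(A)-binding protein from its partners, averaged 476 CPM at GV (SD 61.1) and 19.6 CPM at MII (SD 11.6; log2 -4.85, SE 0.21, adjusted p = 2.29e-11). The 2 thus moved in opposite directions. Paip2b, a paralogue of Paip2 named after its values were seen, averaged 79.3 CPM at GV and 88.3 CPM at MII. It was not called (log2 0.17, SE 0.17, adjusted p = 0.385). Pabpc1l, an oocyte poly(A)-binding protein, had -2.24.

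Among 9 regulators of the eIF4 complex 4 were higher and 1 lower. Rps6kb1, a kinase downstream of mTOR that acts on eIF4B, had a log2 fold change of 1.17, and Mknk1, the kinase of eIF4E, one of 0.98. Rps6kb2 was the gene called lower, and it averaged 3.77 CPM in SN GV and 0.462 CPM in SN-MII oocytes (log2 -2.99, SE 0.79, adjusted p = 0.00507). All 3 NSN-MII libraries had 0 counts of it against 4.63 CPM in NSN GV oocytes, so no fold over both types is given. Of the 5 tested genes for the eIF2 phosphatase and the stress response, Ppp1r15a, a subunit that directs the phosphatase to eIF2 alpha, rose by 1.28 (SE 0.21, adjusted p = 3.71e-05). Ddit3 (-4.55) and Atf4 (-1.98), transcription factors made when eIF2 alpha is phosphorylated, fell. The remaining role, helicases and other partners of initiation, had 3 genes higher, led by Bzw1 (1.12) and Ddx3x (0.97), and 4 lower, led by Mcts1 (-2.95) and Bzw2 (-1.41). Mcts1 was scarce, at a mean of 4.16 CPM at GV and 0.561 CPM at MII. Bzw2 averaged 78.4 CPM at GV with an SD of 79.9, its stages overlapped, and it was not called within SN or NSN oocytes alone. None of the partner genes was called by edgeR between NSN and SN oocytes at GV or at MII, or in the interaction. An unadjusted p under 0.05 was found for 0 of 39 at GV (1.75% of all genes), for 10 of 35 tested at MII (9.38% of all genes) and for 6 of 39 in the interaction (5.33% of all genes).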

How the data were processed

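RNA of 13 single oocytes was amplified by SMART-seq2, tagmented by Tn5 and sequenced. Per the submitters' notes and methods, the authors trimmed reads with Trim Galore 0.4.4, mapped them to mm10 with Bowtie2 2.3.5 and quantified genes with RSEM 1.2.28, which shares out reads that fit several genes. They deposited these expected counts, 1 table per stage, and FPKM values, scaled by gene length and library size, in a further table of 49686 genes. No molecular identifiers or strand-specific step is described, so read counts do not give the full error of a value, and overlapping or near-identical genes are uncertain. In 18 of the 54 genes some library held a count that was not whole. All 13 libraries did so for Eif1, Eif2ak1, Eif2s3x, Eif3j1, Eif3j2, Eif4e3, Eif4g2 and Eif5b.

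Groups came from the labels. Counts were rounded to whole numbers, filtered with filterByExpr, scaled by TMM and tested with edgeR 4.0.16 (R 4.3.3, glmQLFit and glmQLFTest), with Benjamini-Hochberg adjustment over all genes tested and calls at an adjusted p under 0.05. All 13 libraries were fitted in 4 groups for MII over GV, SN and NSN weighted equally, and for the interaction. NSN over SN was fitted within each stage. The common biological coefficient of variation was 0.364. All pairs of libraries within a group differed by more than sampling noise. DESeq2 1.42.0, limma 3.58.1 (trend, on log2(FPKM + 1)) and leaving out each library served as alternatives, and the steps were checked on simulated data.

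The genes, their classes, the partner and marker lists and the tests were chosen with earlier results of these data known. Values by library are given for the 2 largest rises and falls of each class among called genes with stages that did not overlap, for paralogues, and, where NSN and SN were compared, for the 3 smallest p. Partner genes are named as the 2 largest called changes of a role in each direction. Genes outside this rule are given by log2 fold change within their class. Raw reads, imaging and maturation rates were not analysed here.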

Additional observations from a re-analysis of the deposited data

How the results depend on the processing

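The directions of the complex medians, MII over GV, held in every alternative. Of the 45 genes called between stages, 37 were called in every setting that gave them, and 1, Eif3c, turned on FPKM. The count of 45 ranged from 40 to 45 over the other tools, scalings, filters and thresholds and from 42 to 45 with a library left out. Relative to the main fit, library totals moved the median of all genes by -0.29 and RLE factors, another scaling, by -0.043. DESeq2, which was also run without the filter on low counts, moved it by -0.19. Dropping that filter in edgeR moved it by -0.16. On log2(FPKM + 0.1) it moved by -0.12, and leaving out NSN-MII replicate 1 moved it by -0.10. At MII, DESeq2 called 1 gene between NSN and SN where edgeR called 0, and leaving out a library gave 0 to 2. The cause was not tested. The eIF2B median of -2.02 was -1.43 on log2(FPKM + 1) with either filter, -2.58 on log2(FPKM + 0.1) and -2.47 to -1.81 with a library left out. The eIF3 median of -1.76 was -2.04 with library totals, -2.34 on log2(FPKM + 0.1), -1.41 on log2(FPKM + 1) without the filter and -1.96 to -1.68 with a library left out. The eIF4 median of 0.65 was 0.36 with library totals and on log2(FPKM + 0.1), 0.32 on log2(FPKM + 1) with either filter and 0.46 to 0.67 with a library left out. Among genes not called, Eif1a (-0.88) was -1.35 to 0.0076 with a library left out and Eif3j1 (0.29) turned to -0.014 with library totals, and Eif5a2 (0.03) turned to -0.046 in DESeq2, -0.029 with RLE factors, -0.19 with library totals and -0.30 to 0.72 with a library left out. Of 18 same-numbered pairs of oocytes 2 had a correlation of deviations over 0.1, over a range of -0.44 to 0.21. Pairs with different numbers ranged from -0.18 to 0.38. With so few oocytes in a group, these correlations cannot decide whether same-numbered oocytes shared a female or a batch. With the replicate block the stage comparison called 43 genes, 37 in SN and 38 in NSN oocytes, and NSN over SN still 0, and the stage calls it lost were Eif2ak3 and Eif3e (0.34, adjusted p = 0.0814). Depth limited the tested genes Eif1a, Eif2b5, Eif3f, Eif4ebp1 and Eif5a2, which had under 10 CPM in every oocyte, and their fold changes are known only coarsely.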
